A study of Mus musculus with 5 samples.

Results

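Smooth muscle cells of the mouse colon were described from single-cell RNA profiles, first as a whole and then as barcodes with more than 10% and with at most 10% of their UMIs from mitochondrially encoded (mt-) genes. A barcode, the tag of 1 droplet, was chosen by its measured counts, as smooth muscle where it held at least 300 genes and at least 3 of 5 markers (Actg2, Lmod1, Cnn1, Des and Synpo2) with a UMI, the unique molecular identifier that marks 1 captured RNA molecule. This rule took 476 of 6672 barcodes with 300 or more genes, of which 290 had more than 10% mt UMIs and are called high-mt barcodes here, and 186 had at most 10% and are called low-mt barcodes. No limit on the mitochondrial share was set, because such a limit would remove most of these barcodes.

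The cells came from the colonic mesenchyme of untreated C57/BL6 mice aged 10 weeks, with no genetic change named in the labels, and their polyadenylated RNA was read by Drop-seq, which catches cells with barcoded beads in droplets. Epithelium was removed before the mesenchymal cells were released with enzymes, so what share of the muscle coat entered the suspension was set in part by the preparation. Biological replicate 1 gave the droplet collections 1A and 1B, and biological replicate 2 gave 2A, 2B and 2C. The collections held 1636550 to 3345732 UMIs, 10 barcode sequences occurred in 2 collections, and none of them was a smooth muscle barcode. The number of animals behind a replicate is not in the labels. The p-values measure only how the difference between high-mt and low-mt barcodes varied between these 2 suspensions, with that spread shared across genes.

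Smooth muscle forms the muscular coat of the gut, the thin muscle layer under the mucosa and the walls of vessels. It contracts when calcium entering the cell or leaving internal stores activates myosin light-chain kinase, and acetylcholine from enteric neurons drives this through muscarinic receptors. Desmin and synemin form its intermediate filaments, and serum response factor with its partner myocardin switches on its contractile genes at a short DNA element called the CArG box. In single-cell work a high share of mitochondrial RNA is widely used to remove barcodes of damaged cells, although muscle is rich in mitochondria.

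The smooth muscle share of barcodes was 7.11% ± 2.07 (mean ± SD of the 2 biological replicates). It was 291 of 3396 barcodes in replicate 1 (8.57%, exact 95% binomial interval 7.65 to 9.56%) and 185 of 3276 in replicate 2 (5.65%, 4.88 to 6.49%). These intervals, like all counting intervals here, cover counting error only. Collections of a replicate lay close together, at 8.49% and 8.67% in 1A and 1B and at 5.71%, 6.26% and 5.02% in 2A, 2B and 2C. Under a limit of 10% mt UMIs, smooth muscle would have been 3.12% of the remaining barcodes in replicate 1 and 3.07% in replicate 2.

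Smooth muscle genes that the rule did not use were high in the same barcodes. Myh11, the smooth muscle myosin heavy chain, averaged 7638 ± 678 CPM in smooth muscle (counts per 1000000 UMIs outside mt- genes, n = 2) and 107 CPM in fibroblasts, the highest other class with 50 or more barcodes. Acta2, smooth muscle actin, averaged 5752 ± 19.0 CPM in smooth muscle and 133 CPM in fibroblasts. Tagln, an actin-binding protein, averaged 4296 ± 374 CPM in smooth muscle and 79.6 CPM in fibroblasts. The 25 genes that stood furthest above every other class also held Mylk (myosin light-chain kinase), Tpm1 and Tpm2 (tropomyosins), Flna (filamin A), Pln (phospholamban, which restrains calcium uptake into stores), Kcnma1 and Kcnmb1 (subunits of the large-conductance potassium channel), Myom1, Dmpk and Ckm. The rule chose the barcodes by muscle genes, so these levels are a description and were not tested. Pericytes, contractile cells around capillaries of which there were 38 barcodes, came nearest: they held 1490 CPM of Myh11 and 1220 CPM of Acta2, and their Pcp4 (552 CPM, against 152 ± 110 CPM in smooth muscle) was above the smooth muscle level. A further gene among the 25, Igkv2-137, is an antibody segment that had 1020 CPM in the low-mt sum of replicate 1 and 0 CPM in the other 3 sums.

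The mitochondrial share set smooth muscle apart from most classes. High-mt barcodes were 59.1% ± 11.7 of smooth muscle (67.4% in replicate 1 and 50.8% in replicate 2), against 2.37% ± 1.39 of fibroblasts and 0.923% ± 0.473 of macrophages. The share was 71.5%, 61.9%, 43.7%, 48.3% and 63.0% of smooth muscle in collections 1A, 1B, 2A, 2B and 2C, against 5.05 to 7.24% of all other barcodes, so smooth muscle was above the rest in every collection. Blood endothelial cells, enteric glia and lymphatic endothelial cells had 8.11% ± 2.74, 7.20% ± 0.427 and 4.67% ± 1.72 of their barcodes above 10%, and none of 55 T cell or innate lymphoid barcodes and none of 72 B cell barcodes did (exact upper limits 6.49% and 4.99%). Small classes reached shares like that of smooth muscle or above it: 13 of 29 enteric neuron barcodes (35.3% in replicate 1 and 58.3% in replicate 2), 11 of 25 epithelial barcodes and all 3 barcodes that met the rule for interstitial cells of Cajal were above 10%. Of 38 pericyte barcodes 6 were above 10% (15.8%). Of all 667 barcodes above 10%, smooth muscle made up 43.5%, with 55.2% in replicate 1 and 30.1% in replicate 2. With 2 replicates, or 5 paired collections (smallest possible exact two-sided p = 0.0625), no exact test can pass 0.05, so these shares have no test.

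**Figure D1:**
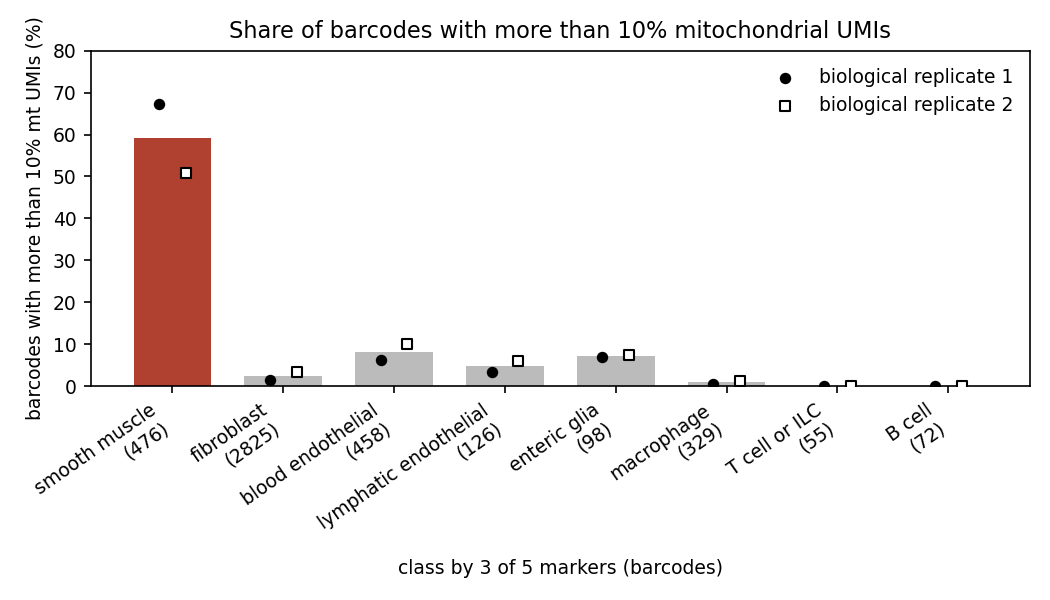
Share of barcodes with more than 10% mt UMIs (y axis, percent) in each class with 50 or more barcodes (x axis, number of barcodes in brackets). Bars are means of the 2 biological replicates, circles replicate 1 and squares replicate 2; smooth muscle stands at 67.4% and 50.8%, and every other class shown has a mean of at most 8.11%.

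The share also followed how many of the 5 markers a barcode held. It was 5.11% of 4695 barcodes with no marker, 6.02% of 1147 with 1 and 19.2% of 354 with 2, and among smooth muscle barcodes it was 31.7% of 164 with 3 markers, 66.4% of 146 with 4 and 84.9% of 166 with 5. Barcodes with 3 markers made up 17.9% of the high-mt and 60.2% of the low-mt barcodes. Median counts were 1080, 1035 and 1496 UMIs outside mt- genes at 3, 4 and 5 markers, highest at 5. The part of depth in this order was not tested. Barcodes that met the fibroblast rule as well were fewer where more markers had a UMI, at 18.9%, 12.3% and 9.04% of barcodes with 3, 4 and 5 markers.

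**Figure D2:**
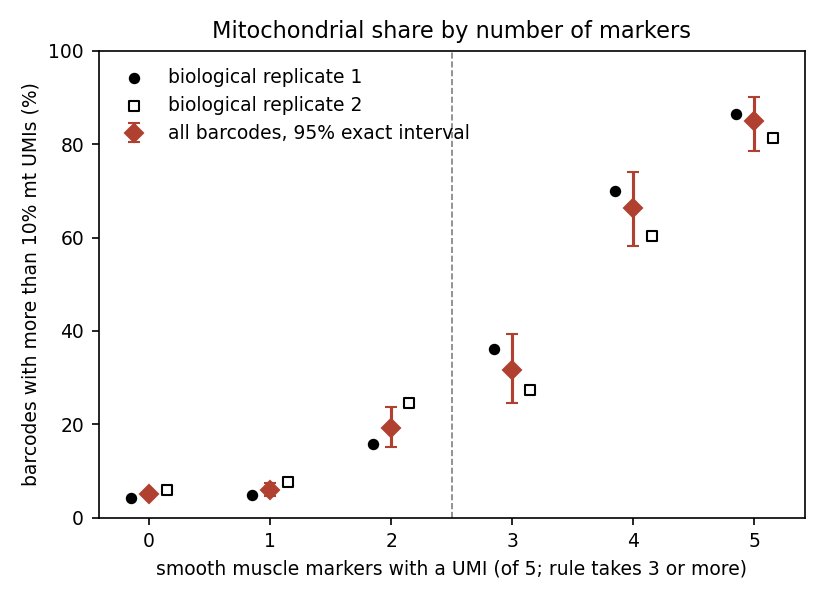
Share of barcodes with more than 10% mt UMIs (y axis, percent) against the number of the 5 smooth muscle markers with a UMI (x axis; the dashed line marks the rule). Diamonds are all barcodes with 95% exact intervals, circles replicate 1 and squares replicate 2; the share is 5.11% with no marker and 84.9% with all 5.

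High-mt barcodes had a median of 353.5 mt UMIs and 1137 other UMIs, and low-mt barcodes 88.5 mt UMIs and 1351 other UMIs. The median mt share was 22.0% in high-mt and 6.47% in low-mt barcodes, which the split itself set. High-mt barcodes held fewer genes, with a median of 697 against 822.5 in low-mt barcodes. After thinning each barcode to 500 UMIs outside mt- genes (265 of 290 high-mt and 185 of 186 low-mt barcodes had that many), the medians were 349 genes in high-mt and 378 in low-mt barcodes, and the 20 most abundant genes of a barcode took a median of 25.6% of its UMIs in high-mt and 17.8% in low-mt barcodes. In fibroblasts thinned the same way the medians were 364 genes above and 365 genes below the limit.

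The mt UMIs themselves were led by the same RNAs on both sides of the limit. The large ribosomal RNA mt-Rnr2 took 61.3% ± 2.48 of mt UMIs in high-mt and 64.5% ± 1.12 in low-mt barcodes, and mt-Cytb, a subunit of respiratory complex III, took 7.37% ± 0.210 and 7.49% ± 0.196. The small ribosomal RNA mt-Rnr1 was further apart, at 14.0% ± 1.39 in high-mt and 8.94% ± 1.30 in low-mt barcodes, and mt-Co1, a subunit of cytochrome oxidase, was at 3.57% ± 0.0553 and 4.55% ± 0.0402. Their levels chose the groups, so no test was made.

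The 5 rule markers, likewise a description, were all higher above the limit. Des, desmin, had 8298 and 6053 CPM in the high-mt sums of replicates 1 and 2, and 775 and 557 CPM in the low-mt sums. Cnn1, the actin-binding calponin, had 7735 and 5905 CPM in high-mt and 1352 and 1338 CPM in low-mt sums. Actg2, enteric actin, averaged 6113 ± 1607 CPM in high-mt and 1516 ± 248 CPM in low-mt barcodes, and Synpo2, an actin-bundling protein, 1045 ± 191 and 181 ± 25.2 CPM. Lmod1, leiomodin, which starts actin filaments, was the nearest to equal, at 2668 ± 411 CPM in high-mt and 1635 ± 357 CPM in low-mt barcodes. The markers differed in how they entered the rule: Actg2 had a UMI in 88.6% of high-mt and 89.8% of low-mt barcodes, and Des in 95.5% of high-mt and 50.5% of low-mt barcodes. In fibroblasts, which should lack all 5 genes, 2.65 to 6.48% of barcodes had a UMI of a given marker (median depth 1291 UMIs outside mt- genes).

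The question of the main comparison was which other genes differ between high-mt and low-mt smooth muscle. High-mt barcodes held more RNA of contractile filaments, of calcium handling, of the muscarinic receptor Chrm2 and of the secreted signalling antagonist Grem1, and low-mt barcodes held more Hhip, F2r, Plau and Rbp4. The 2 groups met the rule to unlike degrees, as barcodes with 3 markers were 17.9% of high-mt and 60.2% of low-mt barcodes. How far the levels of other contractile genes follow from the number of rule markers was not tested. UMIs outside mt- genes were summed per biological replicate and mt group and compared with edgeR's quasi-likelihood F test with the replicate as a block. Of 3687 genes tested, 172 were higher in high-mt barcodes (4.67% of those tested) and 111 were lower (3.01%) at a Benjamini-Hochberg adjusted p under 0.05. Adjusted p-values of genes in the following paragraphs are from this edgeR fit. As a gene could pass the filter on low counts through the group where it was high, the counts per gene list below are descriptions. The fold changes are log2 values of high-mt over low-mt, ± an approximate SE. This SE is the size of the fold change divided by the square root of its F statistic, so it carries the spread shared across genes.

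The number of genes that passed rested on collection 2C. Without it no gene passed in either direction (smallest adjusted p = 0.0584 with edgeR), while 329 higher and 297 lower genes had an unadjusted p under 0.05 and all 170 and 107 of the called genes that could still be tested kept their sign. Without 2A the calls were 113 higher and 61 lower, and without 1A and 1B the lower calls were 73 and 68. DESeq2 with the same block called 77 higher and 31 lower genes. Among the list genes named below, Pln, Cacna2d1, Pde5a, Chrdl1, Sfrp1, Rspo3, Srf, Meis2, Lamb1, Neat1 and Gadd45a kept their sign but did not pass with DESeq2 (adjusted p = 0.0580 to 0.249). DESeq2 gave no adjusted p to Ryr3, Ednra, Ednrb, Bmp5, Meis1, Itga7, Ldhb and Egr2. With library sizes alone and no scaling factors edgeR called 177 higher and 203 lower genes, and the median log2 fold change of all genes tested was then -0.17, against -0.02 with TMM factors, while all 172 and 111 called genes kept their sign.

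Another difference moved with the mt groups. In the high-mt group 26 of 290 barcodes (8.97%) also met the 3-of-5 rule of another class, and in the low-mt group 59 of 186 did (31.7%), with the fibroblast rule met by 17 high-mt and 47 low-mt barcodes and the blood endothelial rule by 0 high-mt and 7 low-mt barcodes. The summed level of the 5 fibroblast markers was 787 and 1207 CPM in the high-mt sums of replicates 1 and 2, and 1795 and 2527 CPM in the low-mt sums, against 17102 to 18103 CPM in fibroblasts. The 5 blood endothelial markers stood at 145 and 121 CPM in the high-mt sums and at 1635 and 81.5 CPM in the low-mt sums, so the low-mt level was the higher one in replicate 1 only. Lymphatic endothelial markers likewise stood at 46.1 and 83.6 CPM in the high-mt sums and at 902 and 81.5 CPM in the low-mt sums. The rules for macrophages, enteric glia, T cells or innate lymphoid cells and epithelium were met by no barcode of either group. The glial markers Sox10 and Cmtm5 were at 0 in both groups, as were the epithelial Epcam, Krt8, Krt18 and Cdh1 in high-mt and Krt8 and Cdh1 in low-mt barcodes. The sum of the 5 pericyte markers ran the other way, with 3855 and 2748 CPM in the high-mt and 1066 and 1243 CPM in the low-mt sums. Most of it was Rgs5, with 3611 and 2275 CPM in high-mt and 924 and 1066 CPM in low-mt sums (adjusted p = 0.0616). Cspg4 rose (log2 fold change 1.94 ± 0.59, adjusted p = 0.0371), and Abcc9 and Kcnj8 did not pass (adjusted p = 0.0677 and 0.365). Kcnj8 was level in replicate 1, at 74.4 CPM in high-mt and 76.4 CPM in low-mt barcodes. Notch3, which did not pass the filter on low counts, was lower in high-mt sums, at 14.2 and 27.9 CPM against 26.7 and 34.0 CPM. Antibody transcripts (Igha, Igkc, Igj and Mzb1) had 202 UMIs in high-mt and 7533 UMIs in low-mt barcodes, of which 4 low-mt barcodes held 98.0%. The comparison was therefore repeated without all barcodes that met another class's rule (264 high-mt and 127 low-mt barcodes left): of 1692 genes tested, 224 were higher in high-mt barcodes (13.2%) and 149 lower (8.81%). The common dispersion, the spread between sums that edgeR fits, was 0.0263 there, against 0.0776 with all barcodes. Adjusted p-values of both fits are therefore not on a like footing, and a smaller one does not mean a larger change.

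Contractile genes were the list with the most calls by number, while BMP genes had a larger share called higher (37.5% of 8 tested). Of 37 listed contractile genes 35 were tested. In high-mt barcodes 12 rose (34.3%, against 4.67% of all genes tested) and none fell (against 3.01%). The median log2 fold change was 1.48, against -0.02 over all genes tested. Without the barcodes of another class, 22 of 33 rose and none fell, against 13.2% of all genes higher and 8.81% lower. DESeq2 on all barcodes called 19 of the 35 higher and 0 lower, against 77 higher and 31 lower of all 3687 genes. The list summed to 129154 and 105123 CPM in the high-mt sums and to 34293 and 47529 CPM in the low-mt sums, against 6011 and 6482 CPM in fibroblasts.

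Synm, the intermediate filament protein synemin (chr7:67730160-67759742, mm10), had 3011, 2777, 2040, 2141 and 2741 CPM in the high-mt sums of collections 1A, 1B, 2A, 2B and 2C, and 150, 303, 143, 67.2 and 43.0 CPM in the low-mt sums. Every high-mt sum was above every low-mt sum, with a log2 fold change of 4.21 ± 0.60 (adjusted p = 4.28e-05). Smtn, smoothelin, a marker of contractile smooth muscle, had 1538 to 2850 CPM in the high-mt and 64.5 to 326 CPM in the low-mt sums of the 5 collections (3.37 ± 0.56, adjusted p = 0.000242). Cald1, the actin-binding caldesmon, had 17897 and 14687 CPM in the high-mt and 3213 and 3593 CPM in the low-mt sums of replicates 1 and 2 (2.36 ± 0.66, adjusted p = 0.0237). Myh11 rose as well (2.08 ± 0.65, adjusted p = 0.0404), as did Flna, Tns1 (tensin), Ppp1r12b (a regulatory subunit of myosin phosphatase), Pgm5, Sorbs2, Pdlim3, Pdlim7 and Ldb3.

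Several abundant contractile genes did not pass. Acta2 had 8614 and 8207 CPM in high-mt and 2640 and 3980 CPM in low-mt sums (1.48 ± 0.61, adjusted p = 0.145), and Tagln, Myl9, Mylk, Tpm1 and Tpm2 had fitted log2 fold changes of 1.53 to 1.90 with adjusted p-values of 0.0519 to 0.123. Without the barcodes of another class, in the fit with the smaller spread, all 6 passed. Acta2 was then at 0.97 on the log2 scale (adjusted p = 9.03e-05), a smaller change than with all barcodes. The log2 differences of Synm, Smtn and Tns1 were 3.61, 2.77 and 2.55 in that comparison.

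Calcium handling and membrane excitation showed 5 higher and no lower genes among 19 tested (25 listed). The higher ones were 26.3%, against 4.67% of all genes tested higher and 3.01% lower, and DESeq2 called 2 of the 19 higher and 0 lower. Ryr3, a ryanodine receptor that releases stored calcium, had 99.2 and 121 CPM in high-mt and 3.82 and 0 CPM in low-mt sums, which rested on 41 UMIs in high-mt and 1 UMI in low-mt barcodes (ratio of the sums 43.0, 95% counting interval 7.30 to 1740). Jph2, junctophilin, which couples the cell membrane to the stores, had 340 and 297 CPM in high-mt and 61.1 and 109 CPM in low-mt sums (2.09 ± 0.49, adjusted p = 0.00694). Atp2b4, a calcium pump of the cell membrane, Pln and Cacna2d1, a calcium channel subunit, also rose, by 1.56 to 1.76 on the log2 scale. Kcnma1 had 159 and 176 CPM in high-mt and 57.3 and 74.7 CPM in low-mt sums and did not pass (adjusted p = 0.0558).

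Receptors of contraction went both ways with edgeR on sums per replicate, with 2 higher and 2 lower genes among 13 tested (27 listed). Each was 15.4%, against 4.67% of all genes tested higher and 3.01% lower. DESeq2 called 1 of the 13 higher and 0 lower. With sums per collection 3 of 5 were higher and 0 lower, against 21.9% and 17.3% of all genes. Chrm2, a muscarinic acetylcholine receptor (chr6:36388084-36528414), had 280, 192, 299, 409 and 224 CPM in the high-mt sums of collections 1A, 1B, 2A, 2B and 2C, and 7.90, 7.40, 0, 0 and 21.5 CPM in the low-mt sums. That is 102 UMIs in high-mt and 3 UMIs in low-mt barcodes, a ratio of 35.7 (95% counting interval 11.9 to 176, adjusted p = 7.14e-06). A Chrm2 UMI was found in 63 of 290 high-mt (21.7%), 3 of 186 low-mt (1.61%) and 0.435% of low-mt fibroblast barcodes. Pde5a, which breaks down cyclic GMP, rose as well (1.62 ± 0.47, adjusted p = 0.0276). The endothelin receptors Ednra and Ednrb fell: Ednra had 21.3 and 37.1 CPM in high-mt and 95.5 and 156 CPM in low-mt sums (adjusted p = 0.0266), and Ednrb 21.3 and 37.1 CPM in high-mt and 126 and 81.5 CPM in low-mt sums (-1.89 ± 0.60, adjusted p = 0.0480). With DESeq2 neither endothelin receptor had an adjusted p, and neither was tested with sums per collection. In pericytes Ednra and Ednrb stood at 264 and 663 CPM, and in fibroblasts at 65.6 and 130 CPM. Ednrb also stood at 187 CPM in blood endothelial cells and 290 CPM in enteric glia, against a mean of 104 CPM in low-mt barcodes. Without the barcodes of another class Ednra had a log2 fold change of -2.37 (adjusted p = 0.00898), and Ednrb could not be tested.

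Hedgehog signals from the epithelium act on the muscle of the gut, and Hhip encodes a membrane protein that binds and sequesters hedgehog ligands. Hhip (chr8:79965851-80058006) had 35.8, 52.4, 0, 31.5 and 28.0 CPM in the high-mt sums of collections 1A, 1B, 2A, 2B and 2C, and 529, 422, 1642, 1007 and 795 CPM in the low-mt sums. Every high-mt sum was below every low-mt sum, with 14 and 298 UMIs and a log2 fold change of -4.20 ± 0.60 (adjusted p = 4.28e-05). A Hhip UMI was in 11 of 290 high-mt (3.79%) and 96 of 186 low-mt barcodes (51.6%), and in 1.89% and 34.1% after thinning to 500 UMIs, against 3.08% of low-mt fibroblast barcodes before thinning. With 26.1 CPM in fibroblasts, the highest of the other classes with 50 or more barcodes, Hhip stood among the 25 leading smooth muscle genes through the low-mt barcodes. Without the barcodes of another class its difference was -4.59 on the log2 scale (adjusted p = 8.75e-25). Of 10 hedgehog genes 2 were tested, Hhip and Gas1, a co-receptor for hedgehog ligands that had 206 and 74.3 CPM in high-mt and 49.7 and 61.1 CPM in low-mt sums and did not pass (1.47 ± 0.54, adjusted p = 0.0930).

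Secreted regulators of BMP and Wnt signalling also split. Of 8 tested genes of BMP signalling (14 listed), 3 rose (37.5%, against 4.67% of all genes tested) and 1 fell (12.5%, against 3.01%). The BMP antagonists Grem1 and Chrdl1 were among those that rose, and the ligand Bmp5 fell. Bmp5 had 24.8 and 18.6 CPM in high-mt and 80.2 and 136 CPM in low-mt sums (9 and 41 UMIs, adjusted p = 0.0400). In fibroblasts Bmp5 stood at 247 CPM. Neither Bmp5 nor Chrdl1 could be tested without the barcodes of another class. Grem1, gremlin (chr2:113746164-113758646), had 954, 882, 1443, 1921 and 1594 CPM in the high-mt sums of collections 1A, 1B, 2A, 2B and 2C, and 197, 88.8, 71.4, 381 and 21.5 CPM in the low-mt sums. The groups did not overlap (3.16 ± 0.53, adjusted p = 0.000242), and fibroblasts averaged 258 CPM. Of 5 tested Wnt genes (15 listed), the R-spondin Rspo3, which strengthens Wnt signals, rose to 120 and 195 CPM in high-mt sums, against 57.3 and 13.6 CPM in low-mt sums (2.07 ± 0.58, adjusted p = 0.0226). Sfrp1, a secreted Wnt antagonist, fell to 63.8 and 102 CPM in high-mt sums, against 233 and 380 CPM in low-mt sums (-1.77 ± 0.48, adjusted p = 0.0183), and stood at 668 CPM in fibroblasts. In 1B the 2 mt groups were nearest for Rspo3, at 122 CPM in high-mt and 96.2 CPM in low-mt barcodes.

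**Figure D3:**
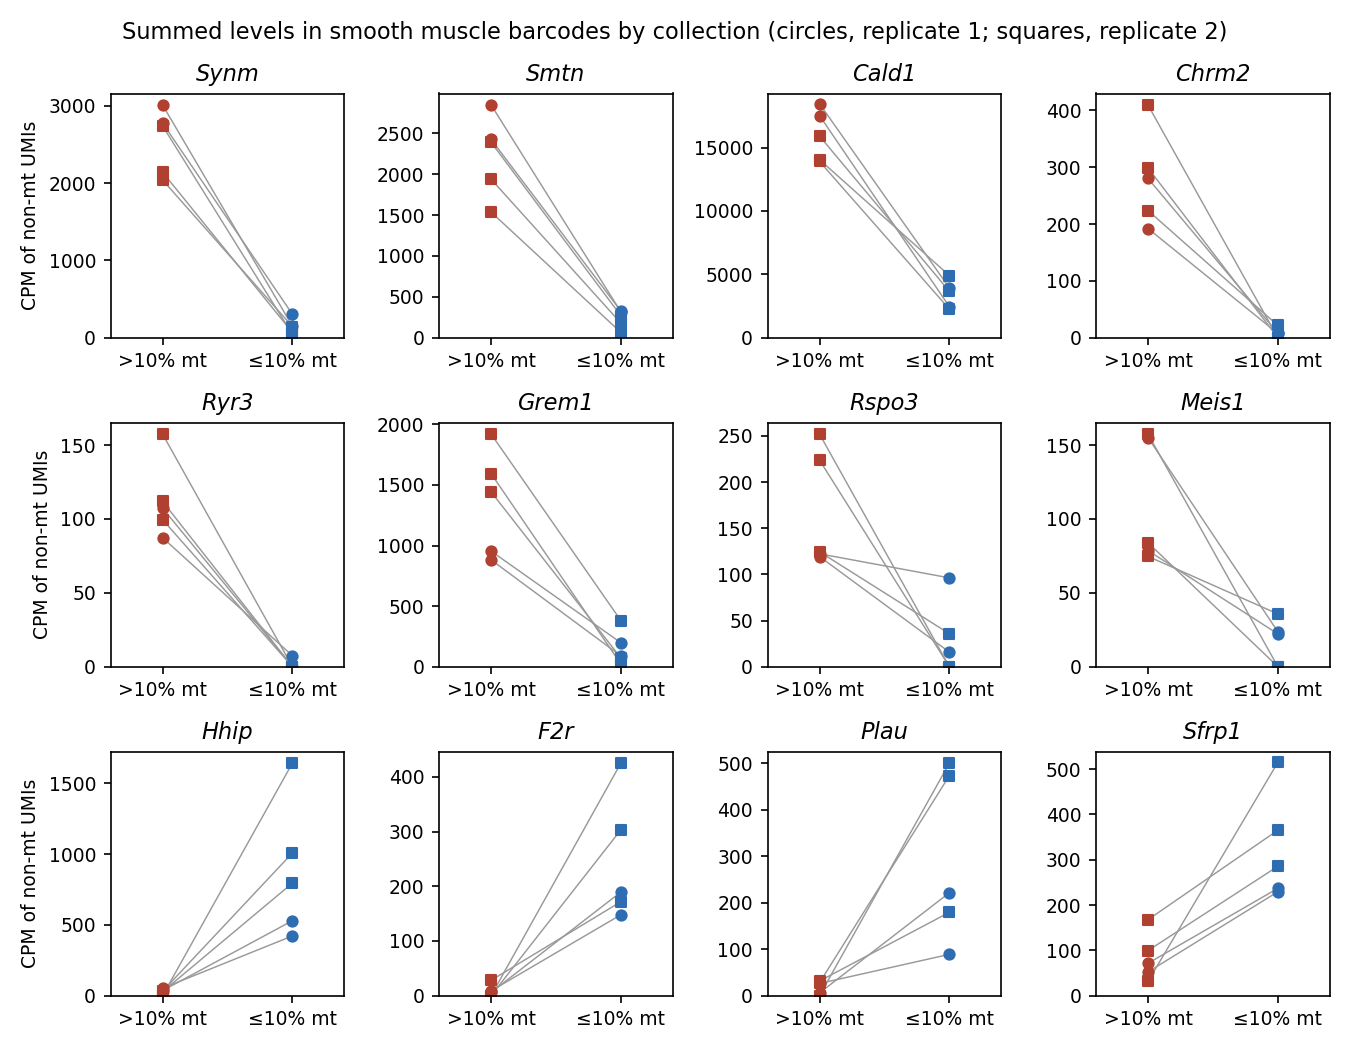
Level of 12 genes (y axis, CPM of UMIs outside mt- genes, each panel with its own scale) in smooth muscle barcodes with more than 10% and with at most 10% mt UMIs (x axis), summed per collection. Lines join the sums of 1 collection, circles are replicate 1 and squares replicate 2; Synm, Smtn, Cald1, Chrm2, Ryr3, Grem1, Rspo3 and Meis1 are higher above 10% mt in all 5 collections, and Hhip, F2r, Plau and Sfrp1 are lower.

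Of 14 tested transcription factors of muscle (24 listed) 3 rose (21.4%, against 4.67% of all genes tested) and none fell (against 3.01%). Srf, serum response factor, had 269 and 251 CPM in high-mt and 87.9 and 67.9 CPM in low-mt sums (1.82 ± 0.47, adjusted p = 0.0145). The homeobox factors Meis1 and Meis2 rose by 2.66 ± 0.61 and 1.97 ± 0.52 (adjusted p = 0.00561 and 0.0161). Meis2 was higher in high-mt barcodes in 4 of 5 collections, with 166 CPM in high-mt and 170 CPM in low-mt barcodes of 1B. With DESeq2 none of the 14 passed (Srf 0.107 and Meis2 0.0816 as adjusted p, and none given for Meis1). Myocd, the partner of Srf, had 49.6 and 46.4 CPM in high-mt and 49.7 and 67.9 CPM in low-mt sums and did not pass (adjusted p = 0.955).

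Because contractile genes moved together, their promoters were searched for the CArG box on both strands, in the 250 bases before each start site of the RefSeq promoters (GRCm38.p6). Of the 37 listed contractile genes 33 had a promoter there, and 6 of them held a box (18.2%), against 439 of all 27025 genes with a promoter (1.62%) and 59 of the 2777 matched genes of the 3687 tested (2.12%). The share was 6 of 121 matched genes among those higher in high-mt barcodes (4.96%) and 1 of 77 among those lower (1.30%). Counted by promoter, since a gene can have several, it was 4.73% of the higher and 3.81% of the lower set, against 15.9% of the contractile list and 1.47% of all promoters. None of the 4 rule markers with a promoter in the table held a box. These are descriptions of letters in a window. Of the 6 contractile genes with a box, only Ldb3, which anchors actin filaments, rose (2.46 ± 0.70, adjusted p = 0.0271). It had 27 and 9 UMIs in the high-mt sums and 4 and 3 UMIs in the low-mt sums. Myl9, Dmd, Myl6, Vcl (vinculin) and Filip1l did not pass (adjusted p = 0.123, 0.147, 0.619, 0.846 and 0.942). In the whole contractile list 12 of 35 tested genes rose. The windows of 4 of the 6 genes are shown to set the boxes side by side, 5′ to 3′ on the strand of the gene, with the box in capitals.
Ldb3 (chr14:34588697-34588726, minus strand): gggttacagtCCATTTATGGgcgcagcaag
Myl9 (chr2:156775293-156775322, plus strand): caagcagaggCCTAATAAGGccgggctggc
Vcl (chr14:20929161-20929190, plus strand): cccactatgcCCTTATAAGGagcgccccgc
Filip1l (chr16:57549170-57549199, plus strand): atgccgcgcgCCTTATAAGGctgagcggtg

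Genes outside the lists were named by size, as the 12 with the largest change in each direction among called genes with at least 100 CPM in the higher group and the same direction in all 5 collections. Besides Synm, Chrm2 and Ryr3, the higher ones were Epha7, an ephrin receptor, Rims1, a scaffold of presynaptic vesicle release, Igfbp2, which binds insulin-like growth factors, the metalloprotease Adam33, the transcription elongation factor Tcea3, Fam83d, Mtus2, Ctxn3 and Nkd2. Igfbp2 had 422 and 659 CPM in high-mt and 19.1 and 20.4 CPM in low-mt sums (4.77 ± 0.59, adjusted p = 7.14e-06). Rims1 had 262 and 279 CPM in high-mt and 11.5 and 0 CPM in low-mt sums, on 104 UMIs and 3 UMIs (ratio 36.4, 95% counting interval 12.1 to 179). No class with 50 or more barcodes exceeded 1.28 CPM of Rims1. The ones named here other than Igfbp2, Adam33 and Synm had at most 6 UMIs in low-mt barcodes, so their fold changes are poorly fixed. DESeq2 called 6 of these 12 higher genes and gave no adjusted p to Epha7, Ryr3, Tcea3, Fam83d, Ctxn3 and Nkd2. Without the barcodes of another class Epha7, Ryr3, Ctxn3 and Nkd2 could not be tested, and the other 8 passed.

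Besides Hhip, the lower ones were Efemp1, F2r, Plau, Egr2, Rbp4, Ddit4, Plac8, Thbd, Bst2, Mfap5 and Scube1. DESeq2 called 8 of these 12 and gave no adjusted p to Efemp1, Egr2, Thbd and Scube1. Without the barcodes of another class Egr2, Thbd and Scube1 could not be tested, and the other 9 passed. Egr2 had 112 CPM in low-mt barcodes, 111 CPM in fibroblasts and 699 CPM in enteric glia. F2r, the thrombin receptor (chr13:95601803-95618487), had 5.96, 8.73, 0, 0 and 28.0 CPM in the high-mt sums of collections 1A, 1B, 2A, 2B and 2C, and 190, 148, 303, 425 and 172 CPM in the low-mt sums (3 UMIs and 88 UMIs, ratio 0.0358, 95% counting interval 0.00724 to 0.108). The groups did not overlap. Plau, the urokinase plasminogen activator, had 14.2 and 18.6 CPM in high-mt and 153 and 394 CPM in low-mt sums (-3.69 ± 0.59, adjusted p = 0.000160). Rbp4, a carrier of retinol, had 24.8 and 65.0 CPM in high-mt and 244 and 571 CPM in low-mt sums (-3.09 ± 0.53, adjusted p = 0.000302). Several of these are also fibroblast genes: fibroblasts held 690 CPM of Plac8, 527 CPM of Efemp1, a fibulin of the matrix, 406 CPM of Mfap5, 146 CPM of F2r, 141 CPM of Plau and 129 CPM of Rbp4. Without the barcodes of another class, F2r, Plau, Rbp4, Plac8 and Efemp1 had log2 fold changes of -5.19, -3.75, -3.38, -3.34 and -4.76, each at an adjusted p of at most 0.0108. How far fibroblast RNA in low-mt barcodes enters these values was not tested.

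Nuclear genes of energy supply gave few calls. None of 59 tested nuclear genes of oxidative phosphorylation passed in either direction, and the list summed to 24048 and 17816 CPM in high-mt and 14425 and 21897 CPM in low-mt sums, which overlap. At an unadjusted p under 0.05 with edgeR 4 of the 59 were higher and 0 lower, against 397 higher and 347 lower of all 3687 genes. DESeq2 called 0 of the 59. The median log2 fold change of the list was 0.42, against -0.02 over all genes tested. Without the barcodes of another class, 4 of 52 rose and none fell (Ndufb8, Cox5a, Atp5a1 and Atp5g3, by 0.88 to 1.09), a smaller share than the 13.2% of all genes that were higher in that comparison. With sums per collection, 8 of 40 were higher and 0 lower, against 21.9% of all genes higher. None of 13 genes of mitochondrial biogenesis and import passed with edgeR or DESeq2. At an unadjusted p under 0.05 with edgeR 2 were higher, against 397 of all 3687 genes. With sums per collection 1 of 5 was higher and 1 lower, near the 21.9% and 17.3% of all genes. Of 11 glycolysis genes, Ldhb, lactate dehydrogenase B, rose (2.17 ± 0.57, adjusted p = 0.0159) and none fell. That is 9.09% of the list higher, against 4.67% of all genes tested.

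Lists read as signs of stress or RNA quality moved in part. None of 13 tested heat-shock genes passed with edgeR, and DESeq2 called 1 lower. At an unadjusted p under 0.05 with edgeR 2 were higher and 2 lower, against 397 and 347 of all 3687 genes. Without the barcodes of another class Hspa1b and Hspb8 were higher and Hspa5 and Dnaja1 lower, 4 of 12 tested. Of all genes in that comparison 13.2% were higher and 8.81% lower. With sums per collection 2 of 10 were higher and 2 lower, near the 21.9% and 17.3% of all genes. Of 19 immediate-early genes Egr2 fell (-3.20 ± 0.71, adjusted p = 0.00428) and none rose. That is 5.26% of the list lower, against 3.01% of all genes tested. Fos had 2452 and 3398 CPM in high-mt and 3255 and 3769 CPM in low-mt sums and did not pass (adjusted p = 0.912). Of 9 tested genes of apoptosis and p53, Gadd45a and Ddit4 fell (22.2%, against 3.01% of all genes tested) and none rose (against 4.67%). Ddit4 had 21.3 and 55.7 CPM in high-mt and 447 and 129 CPM in low-mt sums of replicates 1 and 2, against 823 CPM in blood endothelial cells, whose markers stood highest in the low-mt sum of replicate 1. Its log2 fold change was -2.99 ± 0.63 (adjusted p = 0.00233), and -1.97 without the barcodes of another class (adjusted p = 0.0254). The nuclear RNA Neat1 rose (1.69 ± 0.49, adjusted p = 0.0278). Malat1, the most abundant nuclear RNA, had 68275 and 92812 CPM in high-mt and 33709 and 22202 CPM in low-mt sums, groups that did not overlap. It did not pass (1.65 on the log2 scale, adjusted p = 0.236). Without the barcodes of another class it passed at nearly the same change (1.67, adjusted p = 2.84e-36), in the fit with the smaller spread. Ribosomal protein genes summed to 88623 and 67588 CPM in high-mt and 108155 and 144746 CPM in low-mt sums. None of 81 passed in edgeR on sums per replicate or in DESeq2. At an unadjusted p under 0.05 in edgeR 1 was lower, against 347 of all 3687 genes. Without the barcodes of another class 7 of 79 were lower, near the 8.81% of all genes in that comparison. With sums per collection, whose collections of a replicate are not independent, 32 of 78 were lower and 0 higher, against 17.3% of all genes lower. Of 13 basement membrane genes, Itga7, the laminin receptor subunit of muscle, rose and Lamb1, a laminin chain, fell. Each was 7.69% of the list, against 4.67% of all genes tested higher and 3.01% lower. Lamb1 had 42.3 CPM in high-mt and 174 CPM in low-mt barcodes as a mean of the replicates, against 530 CPM in fibroblasts, and its log2 fold change was 0.25 with the mt limit at 5%. Neither gene could be tested without the barcodes of another class, and DESeq2 called neither.

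**Figure D4:**
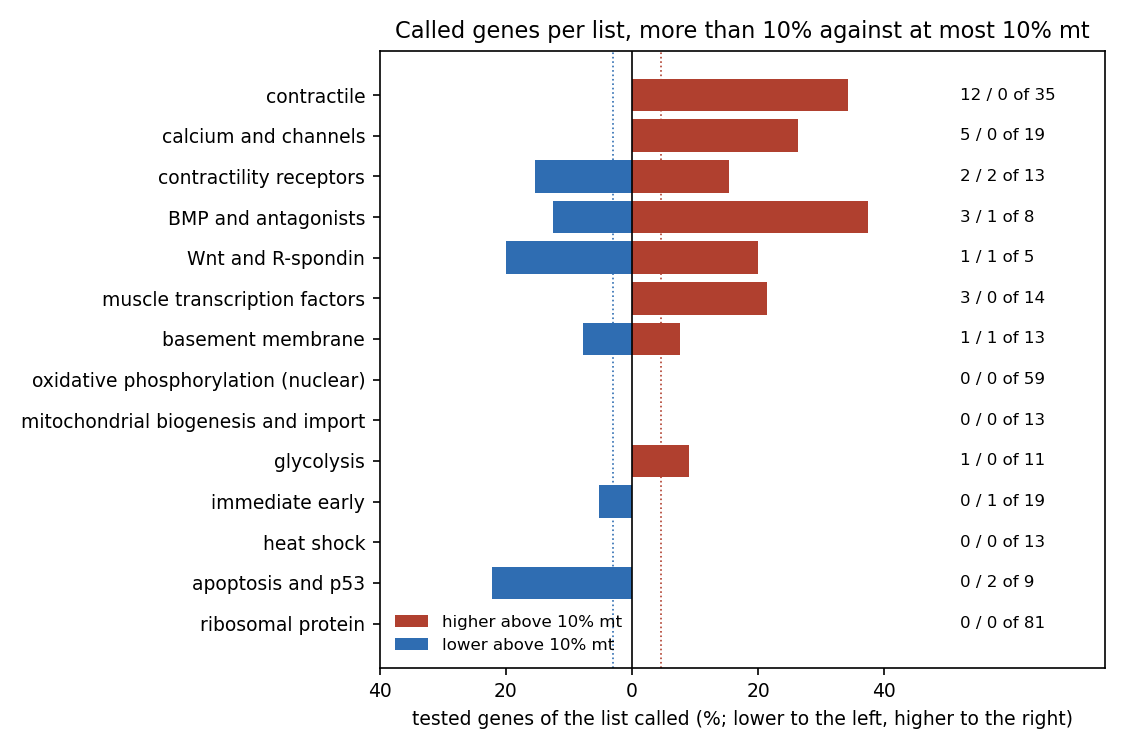
Share of the tested genes of each list that were called between the mt groups (x axis, percent; higher above 10% mt to the right, lower to the left), for lists with 5 or more tested genes (y axis). The numbers give higher and lower calls of the genes tested, and the dotted lines mark the shares over all genes, 4.67% higher and 3.01% lower; contractile genes had 12 higher and no lower calls of 35.

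The split at 10% cut through a gradient. Over bins of up to 5%, over 5 to 10%, over 10 to 20% and over 20 to 40% mt UMIs, the mean of the 2 replicates was 162, 1039, 4617 and 9242 CPM for Des, 48.5, 247, 1191 and 3817 CPM for Synm and 26.3, 227, 806 and 1618 CPM for Grem1. These 3 genes increased at each step. Chrm2 was at 10.0, 7.20, 112 and 390 CPM, low in both bins below 10%. Hhip, by contrast, was at 608 and 959 CPM in the 2 bins below 10% and at 46.2 and 16.6 CPM in the 2 above. F2r ran alike, at 222, 240, 16.1 and 3.97 CPM. Each bin held at least 22 barcodes in each replicate, and the barcodes above 40% (7 and 13) were too few to use. Near the limit, the 31 barcodes with over 10 to 12% mt UMIs held 237 CPM of Hhip and 526 CPM of Synm, and the 45 with over 8 to 10% held 845 CPM of Hhip and 328 CPM of Synm. Barcodes that met the fibroblast rule were 0 to 14.3% of the bins above 10% and 23.2 to 31.8% of those below.

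**Figure D5:**
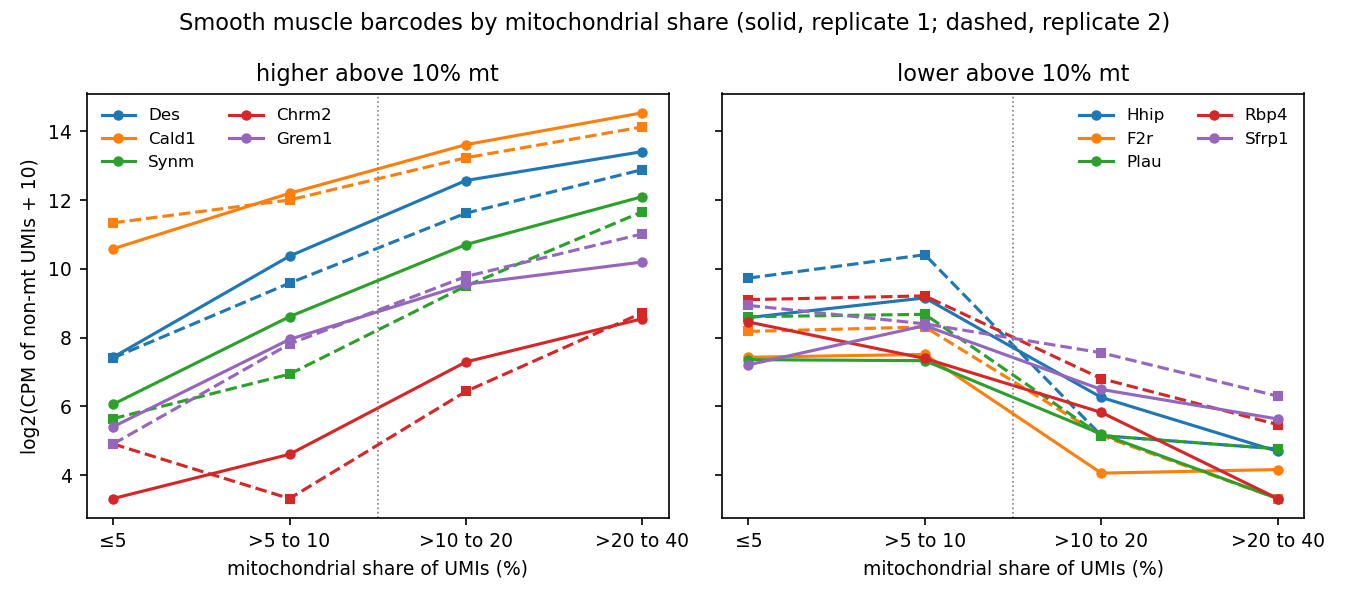
Level of 10 genes (y axis, log2 of CPM + 10) in smooth muscle barcodes summed over bins of the mt share (x axis, percent of UMIs), with replicate 1 solid and replicate 2 dashed; the dotted line marks the 10% limit. Des, Cald1, Synm and Grem1 increase from bin to bin, while Hhip is near its highest level up to 10% and drops above it.

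Around the marker threshold, the 164 barcodes with 3 markers held 655 CPM of Hhip and 118 CPM of Synm, and the 354 barcodes with 2 markers, which the rule left out, held 111 CPM of Hhip and 73.9 CPM of Synm. Of those with 3 markers 31 also met the fibroblast rule, and of those with 2 markers 105 did. At the gene threshold, 22 of the 23 smooth muscle barcodes with at least 300 and under 350 genes were above 10% mt, as were 8 of 10 with at least 250 and under 300 genes.

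The mt difference was then set against the same difference in fibroblasts, of which 69 barcodes were above and 2756 at or below 10%. Of 4713 genes tested for the difference between the differences, 9 were higher in smooth muscle (0.191%) and 2 lower (0.0424%). The fibroblast high-mt sums held only 13918 and 40933 UMIs, so most genes had few or no UMIs there. Grem1 was at 1279 ± 501 CPM in high-mt and 145 ± 5.71 CPM in low-mt smooth muscle, and at 183 ± 156 CPM in high-mt and 258 ± 15.7 CPM in low-mt fibroblasts (log2 difference of the differences 3.83 ± 0.74, adjusted p = 0.000850). F2r was at 8.19 ± 1.55 CPM in high-mt and 233 ± 92.5 CPM in low-mt smooth muscle, and at 313 ± 167 CPM in high-mt and 145 ± 12.8 CPM in low-mt fibroblasts (-5.06 ± 1.02, adjusted p = 0.00107). Synm was at 2609 ± 434 CPM in high-mt and 159 ± 99.6 CPM in low-mt smooth muscle, and at 61.1 ± 86.4 CPM in high-mt and 58.8 ± 3.52 CPM in low-mt fibroblasts (4.11 ± 0.88, adjusted p = 0.00222). The high-mt fibroblast sums of replicates 1 and 2 held 0 and 5 UMIs of Synm, 1 and 12 UMIs of Grem1, and 6 and 8 UMIs of F2r. Foxp1, a forkhead factor, had 679 ± 27.5 CPM in high-mt and 198 ± 126 CPM in low-mt smooth muscle, and 48.1 ± 33.5 CPM and 129 ± 25.7 CPM in fibroblasts, on 1 UMI in each high-mt fibroblast sum.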

How the data were processed

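Drop-seq profiles of 5 collections were used. The authors deposited whole-number UMI counts per gene and barcode, without normalisation, from reads aligned with STAR 2.6 on mm10, as the submitters' processing notes list. How barcodes were chosen for deposit and which program counted them are not given in the sources used here. The members, gene lists and tests were chosen with earlier results of these data known.

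Barcodes with 300 or more genes were classed by 3 of 5 markers. UMIs were summed per biological replicate and mt group (4 sums of 107712 to 282228 UMIs), leaving out mt- genes, and fitted with edgeR 4.0.16 in R 4.3.3 (two-sided quasi-likelihood F test after filterByExpr and TMM scaling, Benjamini-Hochberg adjustment over all genes tested, threshold 0.05) with the replicate as a block, since both sums of a replicate came from the same suspension. Deviations of same-numbered sums from the group means correlated at r = -0.13 over 3687 genes. The fibroblast comparison used 8 sums with a block per replicate and class. With 4 sums, 1 residual degree of freedom per gene remained and the spread was shared across genes. On simulated data the fit of 3262 genes recovered 9% of 2-fold and 68% of 4-fold changes; the fibroblast comparison (3791 genes) recovered 1% and 5%. No doublet caller was run; barcodes of several classes were kept, or left out as an alternative.

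Of genes named by the rule (12 largest changes each way, up to 5 called genes of highest CPM per list, 10 genes of lowest adjusted p for the fibroblast comparison, 25 leading genes) and checked against GENCODE M21, 60 matched and 28 overlapped another gene, 13 of them on the same strand, such as Chrm2, Meis1, Foxp1 and Neat1; how such reads were counted is not given in the sources used here. Contractile genes beyond those 5, Malat1, Fos, Gas1, Myocd, Kcnma1, Acta2, the promoter examples and genes called only without barcodes of another class were named after their values were seen. DESeq2 1.42.0, other scalings, filters and limits were alternatives. A gene that the naming rule picked is not reported here.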

Additional observations from a re-analysis of the deposited data

Results flagged for a closer look

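In 3 of 53 genes examined, the log2 difference between the mt groups in 1 of the 5 collections lay apart from the other 4 (gap over range above 0.71; chance flags about 1 in 20). For Fam83d the gap was 0.746, with a difference of 0.32 in 2A and 2.89 to 3.76 in the other collections. For Mfap5 it was 0.736, with -3.56 in 2A and -2.58 to -2.23 in the others. For Srf it was 0.722, with 3.47 in 2A and 1.06 to 1.73 in the others. All 3 flags fell on collection 2A, toward a smaller difference in Fam83d and a larger one in Mfap5 and Srf. Their number is near what chance flags. In 2A, Fam83d had 1 UMI in each mt group, and Srf had 1 UMI in the low-mt group.

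The difference between mt groups differed between smooth muscle and fibroblasts for 10 genes of lowest adjusted p in the edgeR test of that difference: Grem1 (0.000850), Hspb8 (0.000850), F2r (0.00107), Clmp (0.00126), Rgs1 (0.00135), Synm (0.00222), Flt1 (0.00479), Des (0.0179), Foxp1 (0.0184) and Sema3c (0.0184). Des is a marker of the rule and is given as a description. Hspb8 and Rgs1 had 0 UMIs in both high-mt fibroblast sums, so their fitted differences have no size that can be read. Clmp, an adhesion molecule, was at 523 ± 122 CPM in high-mt and 79.0 ± 3.61 CPM in low-mt smooth muscle, and at 244 ± 243 CPM in high-mt and 354 ± 12.3 CPM in low-mt fibroblasts. Flt1, a VEGF receptor of endothelial cells, rested on replicate 1, with 31.9 CPM in high-mt and 520 CPM in low-mt smooth muscle, against 9.28 and 6.79 CPM in replicate 2; 7 low-mt barcodes met the blood endothelial rule.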

How the results depend on the processing

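With at least 2 and at least 4 markers the smooth muscle share was 12.4% and 4.65% and its share above 10% mt was 42.5% and 74.7%. Counts of higher and lower genes moved to 756 and 936 with at least 2 markers, 77 and 31 with DESeq2, and 458 and 456 without biological replicate 2 (sums per collection, 2 pairs). Lower genes alone moved past 1.5 times to 46 at an mt limit of 5%, 175 at 20%, 203 without scaling factors and 186 with no filter on low counts. Leaving out each collection gave 0 to 174 higher and 0 to 109 lower genes. Without the replicate block there were 232 higher and 165 lower genes, within 1.5 times. The difference from fibroblasts had 27 higher and 14 lower genes with sums per collection, 1 and 1 with DESeq2, and 26 and 17 when barcodes of another class were left out (chosen after seeing the data); lower genes were 4 with RLE factors and 1 with no filter. Leaving out each collection gave 3 to 12 higher and 1 to 9 lower genes. Among single genes named between mt groups, 838 values kept direction and side of the threshold, 149 kept direction only, and 1 reversed: Lamb1 at an mt limit of 5%, with a log2 fold change of 0.25; the cause was not tested. The other alternatives chosen after seeing the data were at most 1 fibroblast marker and no other class rule (153 higher, 86 lower), and leaving out barcodes with over 10 antibody UMIs (203 and 161).

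Limits are the 2 biological replicates, the small fibroblast high-mt sums and shallow barcodes. The prior degrees of freedom of the spread fell to 6.51 without collection 2C, from 31.1 with all 5.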
